A study of Mus musculus with 8 samples.

Results

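Neuromodulator receptors let noradrenaline, dopamine, serotonin, histamine, acetylcholine and neuropeptides adjust the excitability and transmitter release of cortical neurons. Most of them are G protein-coupled receptors, and the class of G protein they engage decides the first step: Gs raises cyclic AMP, Gi/o lowers it and opens GIRK potassium channels, and Gq activates phospholipase C beta. Parvalbumin and somatostatin interneurons are well-known targets of these transmitters, and some of them also release opioid peptides, somatostatin or neuropeptide Y. The genes described here are all those whose symbol names a serotonin, adrenergic, dopamine, muscarinic, histamine, opioid, somatostatin or neuropeptide Y (NPY) receptor. The rule found 51 of the 56576 genes listed: 14 serotonin, 9 adrenergic, 5 dopamine, 5 muscarinic, 4 histamine, 4 opioid, 5 somatostatin and 5 NPY receptor genes. Among the serotonin genes, Htr3a and Htr3b encode subunits of a ligand-gated cation channel and not G protein-coupled receptors, and they were kept because the rule takes them.

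The samples were ribosome-associated RNA from cortical synaptosomes, a preparation of pinched-off synapses, of mice at postnatal day 15. There were 4 control libraries from Lhx6-Cre;ErbB4+/+;Rpl22HA/HA mice and 4 from Erbb4 conditional mutants, Lhx6-Cre;ErbB4F/F;Rpl22HA/HA. Both genotypes carried Lhx6-Cre and the Rpl22HA allele, which tags ribosomes with a hemagglutinin epitope where Cre is active, that is in interneurons derived from the medial ganglionic eminence and preoptic area (MGE/POA). The tagged population holds both parvalbumin and somatostatin interneurons, so a value is a sum over both. The comparison asked which receptor messages differ on these synaptic ribosomes when interneurons lack ErbB4, a receptor for neuregulins. Values are normalized counts, that is reads on a gene divided by a size factor for the library. Log2 fold changes are mutant over control on log2(normalized count + 1). For sparsely read genes the added 1 matters most, and a fold change on this scale can differ in direction from the ratio of means. Htr1d, for example, had a log2 fold change of 0.47 beside a ratio of mutant to control means of 0.40. A gene was called when its unadjusted limma p was at most 0.05 and its fold change at least 1.5.

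Reads on genes ran from 51010687 to 80226984 per library. Control replicate 1 stood apart on the first principal component of all genes tested, which held 30.1% of the variance: its loading was 0.91, against -0.22 to 0.05 in the other libraries. Erbb4 itself had 1640, 5377, 4306 and 3034 normalized counts in control replicates 1, 3, 4 and 5 and 1711, 1648, 1233 and 1048 in mutant replicates 2, 3, 4 and 5. The library labelled control replicate 1 therefore lay within the range of the mutants for the deleted gene, and directions below rest on the labels. Deviations from the genotype means, over all genes tested, had correlations of 0.0226 to 0.1 between control and mutant libraries that were both numbered 1 to 3, of 0.0815 to 0.0981 where both were numbered 4 or 5, and of -0.115 to -0.0292 across. No label names this division, and it was noticed in the data. Markers of other cells were abundant in all libraries. Slc17a7, the vesicular glutamate transporter of excitatory neurons, had 87106 to 122229 normalized counts, and Mbp, a myelin protein of oligodendrocytes, 141073 to 535543. Among interneuron genes, the enzyme Gad1 had 1130 to 8135, the marker Slc32a1 2762 to 40646 and the somatostatin precursor Sst 5964 to 367992. These counts are not per kb and do not give the amounts of RNA from each cell type. The part of RNA from other cells in the receptor values was not tested.

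Of the 51 receptor genes, 46 passed the filter, a genotype mean of 10 normalized counts or more in either genotype. Htr3b, Npy4r, Npy6r and Hrh4 were at 0 in all 8 libraries, where a count of 0 allows up to 3 reads in a library, for counting error only. Drd3 had at most 25 normalized counts in a library and was at 0 in 5 of the 8. Of the members tested, Chrm5, Sstr5, Htr1d and Adra2b had at least 1 control library at 0, and their fold changes had standard errors of 1.37 to 1.64.

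Levels were compared between genes only per kb of the longest annotated transcript, in control libraries. Reads were counted over constitutive regions of a different annotation, whose lengths were not used, so the order may depend on the length taken. Sstr4, for example, was listed at chr2:148395342-148401393 and divided by 1.424 kb, and Chrm4 at chr2:91922189-91929829 and divided by 1.44 kb. Both have a single-exon longest transcript, and both listed spans are longer than it. Chrm1, the Gq-coupled M1 muscarinic receptor, came first with a mean of 4019 normalized counts per kb ± 587 (SD, n = 4). It was followed by the histamine receptor Hrh3 with 3420 ± 1350 per kb and by the somatostatin receptors Sstr1 with 3271 and Sstr4 with 3227 per kb. Next per kb were the beta-adrenergic receptor Adrb1 with 1865, the M4 muscarinic receptor Chrm4 with 1611 and the somatostatin receptor Sstr2 with 1498. The order within these 7 is only partly settled, since many of their ranges over the control libraries overlap. Hrh3, for example, ran from 1958 to 4795 per kb and Sstr2 from 1082 to 2410. The ranges of Sstr4 (from 2153 per kb) and Adrb1 (up to 2099) did not overlap. Chrm1, from 3418 per kb, lay above every control library of Adrb1, Chrm4 and Sstr2. All 7 lay above every control library of the remaining members, of which the highest was Oprd1 in a single library, with 1075 per kb. By mean, Drd1, a Gs-coupled dopamine receptor, followed with 727 per kb, and from there down to Adra2b with 12.6 per kb the range of every tested member overlapped that of the next. In the order by normalized count per kb of the tested genes with a symbol and an annotated transcript length, Chrm1 stood at the 94.9 percentile and Adra2b at the 8.76 percentile. The highest member per kb of the serotonin receptors was Htr1a with 512, of the opioid receptors Oprd1 with 679 and of the NPY receptors Npy2r with 230.

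**Figure D1:**
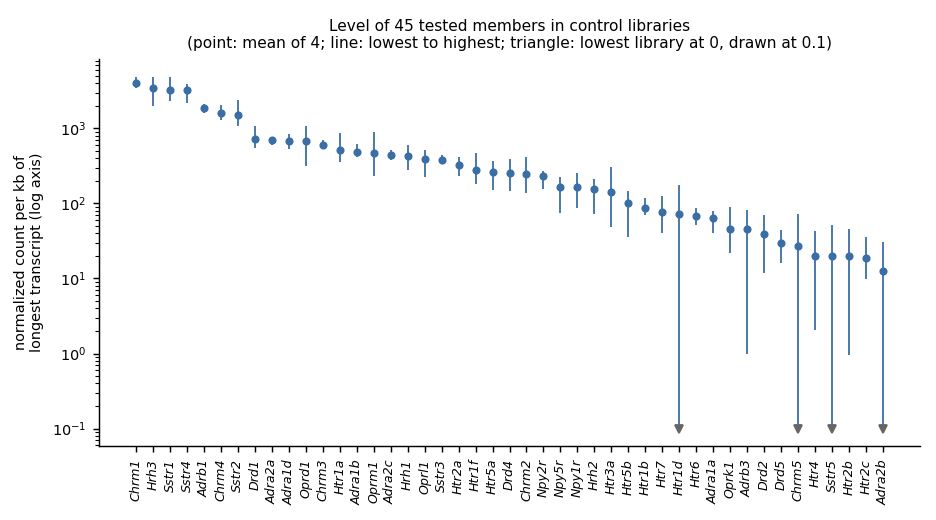
Normalized count per kb of longest transcript (log axis) of 45 of the tested receptor genes in the 4 control libraries, ordered by mean; points are means and lines run from the lowest to the highest library. The lines of the 7 genes at the left, from Chrm1 to Sstr2, overlap in part and lie above those of all other members shown. Those of Htr1d, Chrm5, Sstr5 and Adra2b reach down to a library at 0.

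Across the receptor genes, values were lower in the Erbb4 conditional mutants for most members. Of the 46 tested, 39 had a log2 fold change below 0 and 7 above 0. Their median was -0.46, while the median of all 31171 genes tested was 0.06, and 14534 of those were below 0. The genes Hrh3, Npy2r, Npy5r, Chrm3, Htr1b, Htr5b and Oprl1 were called lower, 7 of 46, where 3.17% of all genes tested were called lower. No receptor gene was called higher, where 3.98% of all genes were; none had an unadjusted p under 0.05 in that direction with limma, and edgeR and DESeq2 called 0 higher too. After Benjamini-Hochberg adjustment over all genes, none of the 46 had an adjusted limma p under 0.05, which 0.0449% of all genes had, and 9 had an unadjusted p under 0.05, all of them lower. DESeq2 on the recovered reads gave 1 receptor gene, Hrh3, an adjusted p under 0.05, beside 0.218% of all genes, and edgeR gave 0. In bulk RNA, fewer contributing cells or synapses and less RNA in each cannot be told apart.

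The direction was counted separately for well-read and sparsely read members. Among the 20 members averaging 1000 normalized counts or more, 19 had a log2 fold change below 0 with a median of -0.46, while the median of the 8324 genes of that level was -0.04. Among the 26 tested members with a lower mean, 20 were below 0 with a median of -0.46, beside a median of 0.11 for all genes of that level.

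**Figure D2:**
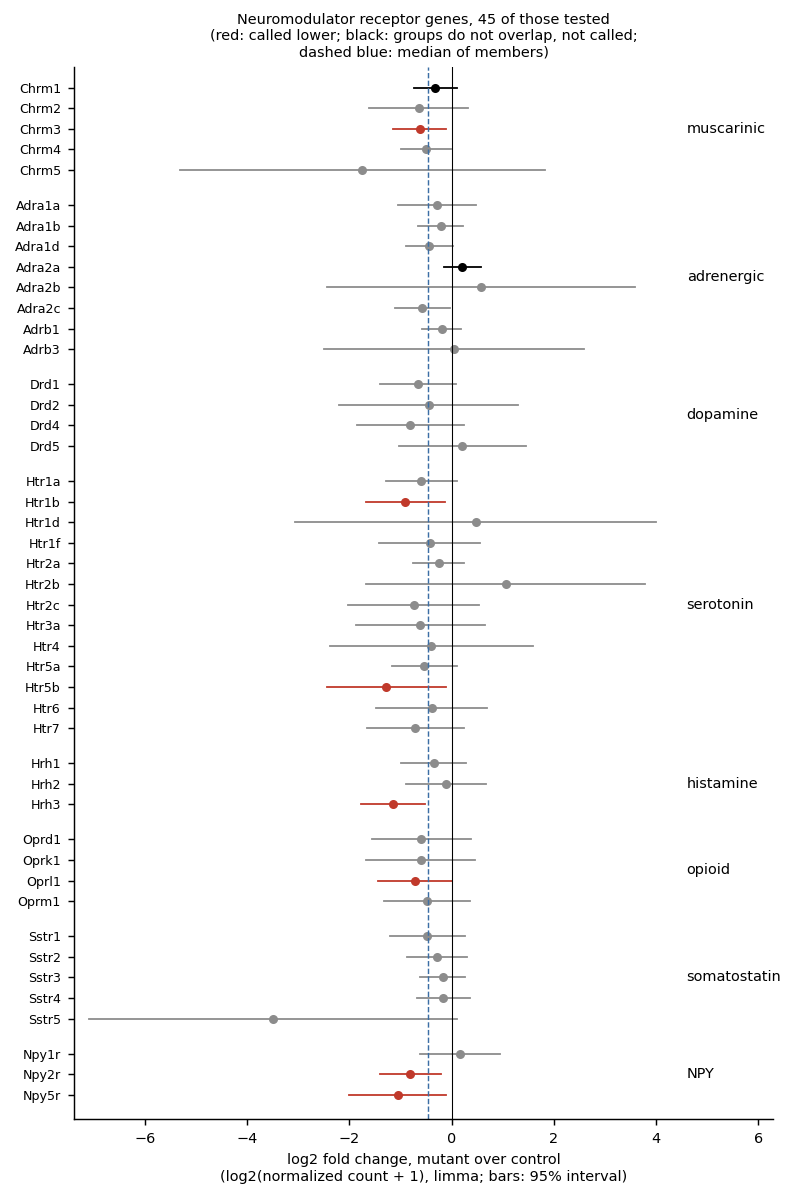
Log2 fold change, mutant over control, of 45 of the tested receptor genes by family, with 95% intervals from limma; red marks the 7 genes called lower and black those whose libraries did not overlap between genotypes without a call (Chrm1 and Adra2a). Most points lie left of 0 and the dashed line marks the median of -0.46; the widest intervals belong to genes with libraries near 0.

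Hrh3 encodes a Gi/o-coupled histamine receptor that acts as an autoreceptor on histamine axons and as a brake on transmitter release at other terminals. It had 12976, 11664, 7077 and 5300 normalized counts in control replicates 1, 3, 4 and 5 and 4395, 4589, 3391 and 3493 in mutant replicates 2, 3, 4 and 5. All 4 mutant libraries were below the lowest control, and the mutants lay close together while the controls spread widely. The means were 9254 ± 3653 and 3967 ± 613 (SD, n = 4 each), a ratio of 0.43. The log2 fold change was -1.14 (standard error, SE, 0.29, 95% interval -1.77 to -0.51; limma, p of 0.0021 unadjusted and 0.58 adjusted). A two-sided exact permutation test gave p = 0.029, the smallest that 4 against 4 libraries allow, and DESeq2 an adjusted p of 0.040. Without control replicate 1, the log2 fold change was -0.95 with an unadjusted p of 0.0071. The other histamine receptors tested were not called: Hrh1, coupled to Gq, had a log2 fold change of -0.35 (95% interval -0.995 to 0.29) and Hrh2, coupled to Gs, of -0.10 (-0.89 to 0.68). Of the exon bases annotated for Hrh3, 11.1% are shared with a gene on the opposite strand, and reads of the 2 strands could not be told apart.

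The start site sequences of the 2 receptor genes whose call held under every alternative tried, Hrh3 and Npy2r, and of Adra2a, whose libraries lay apart in the other direction, are given for reference. Each is the 200 bases before the start site in RefSeq, on GRCm38.p6 and 5′ to 3′ on the gene's strand, with capitals for GGGCGG (the GC box) or TGACG (the core of a cyclic AMP response element) on either strand. They lie at chr2:180104408-180104607 (minus strand) for Hrh3, chr3:82548086-82548285 (minus strand) for Npy2r and chr19:54045059-54045258 (plus strand) for Adra2a.
Hrh3: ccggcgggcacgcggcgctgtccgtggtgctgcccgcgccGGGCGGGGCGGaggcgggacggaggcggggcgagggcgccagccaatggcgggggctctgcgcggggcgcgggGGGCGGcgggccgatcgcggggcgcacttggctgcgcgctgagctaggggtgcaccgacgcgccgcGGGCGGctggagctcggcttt
Npy2r: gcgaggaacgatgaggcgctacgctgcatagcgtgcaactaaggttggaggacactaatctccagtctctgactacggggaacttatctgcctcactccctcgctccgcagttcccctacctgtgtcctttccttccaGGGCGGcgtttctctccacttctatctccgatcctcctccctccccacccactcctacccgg
Adra2a: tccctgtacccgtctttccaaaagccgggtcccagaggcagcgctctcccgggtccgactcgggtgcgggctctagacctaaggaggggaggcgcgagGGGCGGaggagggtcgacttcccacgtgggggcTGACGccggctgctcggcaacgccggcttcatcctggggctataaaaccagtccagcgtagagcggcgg

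The Hrh3 stretch held 4 matches to the GC box, a pair of them overlapping, and no TGACG, while Npy2r held 1 GC box and Adra2a 1 of each. Over the 250 bases before the start site, a GC box was found in 19 of the 38 receptor genes with an entry and in 32.7% of all 32851 entries. TGACG was found in 5 of the 38 and in 17.8% of all entries, and the TATA box letters TATAAA in 2 of the 38 and in 12.4% of all. A match describes letters only and was not tied to the values here.

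Of the NPY receptors, Npy2r and Npy5r were called lower. Npy2r, a Gi/o-coupled receptor found on terminals that release NPY and glutamate, had 901, 819, 862 and 516 normalized counts in control replicates 1, 3, 4 and 5 and 478, 546, 381 and 351 in mutant replicates 2 to 5. The other controls lay above all mutants, and control replicate 5 fell below mutant replicate 3. The log2 fold change was -0.81 (SE 0.27; limma, p of 0.013 unadjusted and 0.58 adjusted). Npy5r, which shares NPY as its ligand, had 518, 477, 173 and 382 normalized counts in the controls and 254, 135, 216 and 117 in the mutants, so control replicate 4 lay among the mutants. Its log2 fold change was -1.06 (SE 0.43, unadjusted p = 0.033 with limma), and the call was lost without control replicate 1, 3 or 5 (log2 fold changes of -0.88, -0.92 and -1.02) and without mutant replicate 3 or 5 (-0.94 and -0.87), with p between 0.067 and 0.091. Npy1r had a log2 fold change of 0.16 (95% interval -0.63 to 0.95), with controls at 262 to 761 and mutants at 390 to 748 normalized counts.

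All 5 muscarinic receptors had log2 fold changes below 0, from -1.75 for the sparsely read Chrm5 to -0.32 for Chrm1, and 1 was called. Chrm3, the Gq-coupled M3 receptor, had 2311, 3000, 2451 and 2576 normalized counts in the controls and 2066, 2237, 1430 and 1160 in the mutants. The groups did not overlap, although mutant replicates 2 and 3 came within reach of control replicate 1. The log2 fold change was -0.63 (SE 0.24; limma, p of 0.024 unadjusted and 0.58 adjusted). Without control replicate 3 it was -0.55 (unadjusted p of 0.060 with limma), without mutant replicate 4 -0.56 (0.065) and without mutant replicate 5 -0.46 (0.077), and each time the call was lost. Chrm1 had 23490, 30010, 25880 and 21434 normalized counts in the controls and 21091, 21232, 19412 and 18667 in the mutants. These groups did not overlap either, but they nearly touched, and the difference was small, with a log2 fold change of -0.32 (SE 0.19, unadjusted p = 0.12 with limma). The Gi/o-coupled M4 receptor Chrm4 had a log2 fold change of -0.51 with an unadjusted p of 0.043, short of the 1.5-fold threshold, and the M2 receptor Chrm2 one of -0.64 with a p of 0.17.

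Of the 13 serotonin receptor genes tested, 11 had log2 fold changes below 0 and 2 were called lower. Htr1b, a Gi/o-coupled receptor that limits release from axon terminals, had 335, 365, 387 and 562 normalized counts in the controls and 290, 126, 281 and 207 in the mutants, with no overlap. Its log2 fold change was -0.91 (SE 0.35; limma, p of 0.026 unadjusted and 0.58 adjusted). The call was lost without control replicate 5 (log2 fold change -0.75, unadjusted p of 0.079), without mutant replicate 3 (-0.65, p of 0.067) and without mutant replicate 5 (-0.89, p of 0.052), and 18% of its exon bases are shared with a gene on the opposite strand. Htr5b had 282, 208, 68 and 228 normalized counts in the controls and 50, 74, 82 and 84 in the mutants. Control replicate 4 lay among the mutants, and the log2 fold change of -1.28 (SE 0.53, unadjusted p = 0.034 with limma) lost its call without control replicate 1, 3 or 5 (-1.05, -1.20 and -1.15) and without mutant replicate 2 or 3 (-1.11 and -1.30), with p between 0.054 and 0.085. Htr1a, a Gi/o-coupled receptor of cell bodies and dendrites, had 1680, 3853, 2079 and 1573 normalized counts in the controls and 2161, 1352, 1225 and 1140 in the mutants, with a log2 fold change of -0.59 (95% interval -1.29 to 0.10), which was -0.31 without control replicate 3. The other members ranged from -0.74 for Htr2c to 1.06 for Htr2b, which was read at 2 to 96 normalized counts in the controls and 10 to 74 in the mutants.

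The 4 opioid receptors all had log2 fold changes below 0, and Oprl1 was called. This Gi/o-coupled receptor of nociceptin had 1366, 1584, 1164 and 694 normalized counts in the controls and 997, 878, 576 and 467 in the mutants, so control replicate 5 lay within the mutants. Its log2 fold change of -0.72 (SE 0.33) had an unadjusted limma p of 0.050, on the threshold, and the call was lost without control replicate 1, 3 or 4 (-0.64, -0.57 and -0.72) and without mutant replicate 4 or 5 (-0.63 and -0.53), with p between 0.088 and 0.15. The delta receptor Oprd1 had 1269, 4322, 3572 and 1764 normalized counts in the controls and 2393, 2481, 1257 and 894 in the mutants. The groups overlapped widely, and the log2 fold change was -0.59 (95% interval -1.56 to 0.38), with -0.90 without control replicate 1, -0.32 without control replicate 3 and -0.31 without mutant replicate 5. The mu receptor Oprm1 and the kappa receptor Oprk1 had log2 fold changes of -0.48 and -0.60, with p of 0.23 and 0.24.

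Adrenergic receptors had a median of -0.20, the nearest to 0 among the 8 families, and none of the 9 was called. Adra2a, a Gi/o-coupled receptor for noradrenaline, had 3628, 3563, 2864 and 3543 normalized counts in the controls and 3717, 4211, 3874 and 3879 in the mutants, so every mutant was above every control. The difference was small, with a log2 fold change of 0.21 (SE 0.17, 95% interval -0.16 to 0.58, unadjusted p = 0.24 with limma), and of 0.13 without control replicate 4. Its relative Adra2c had 1710, 1787, 1360 and 1310 normalized counts in the controls and 958, 704, 1211 and 1360 in the mutants. That gave a log2 fold change of -0.57 with an unadjusted p of 0.041, just under 1.5-fold, and mutant replicate 5 reached the lower controls. Adrb1, coupled to Gs, had 4735 to 6195 normalized counts in the controls and 4508 to 5097 in the mutants, with a log2 fold change of -0.20 (95% interval -0.57 to 0.18).

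Over all members, the libraries of the 2 genotypes did not overlap for 5 genes. In 4 the mutants were lower (Hrh3, Chrm1, Chrm3 and Htr1b), where this held for 2.17% of all genes tested, and in 1 higher (Adra2a), where it held for 2.76%.

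**Figure D3:**
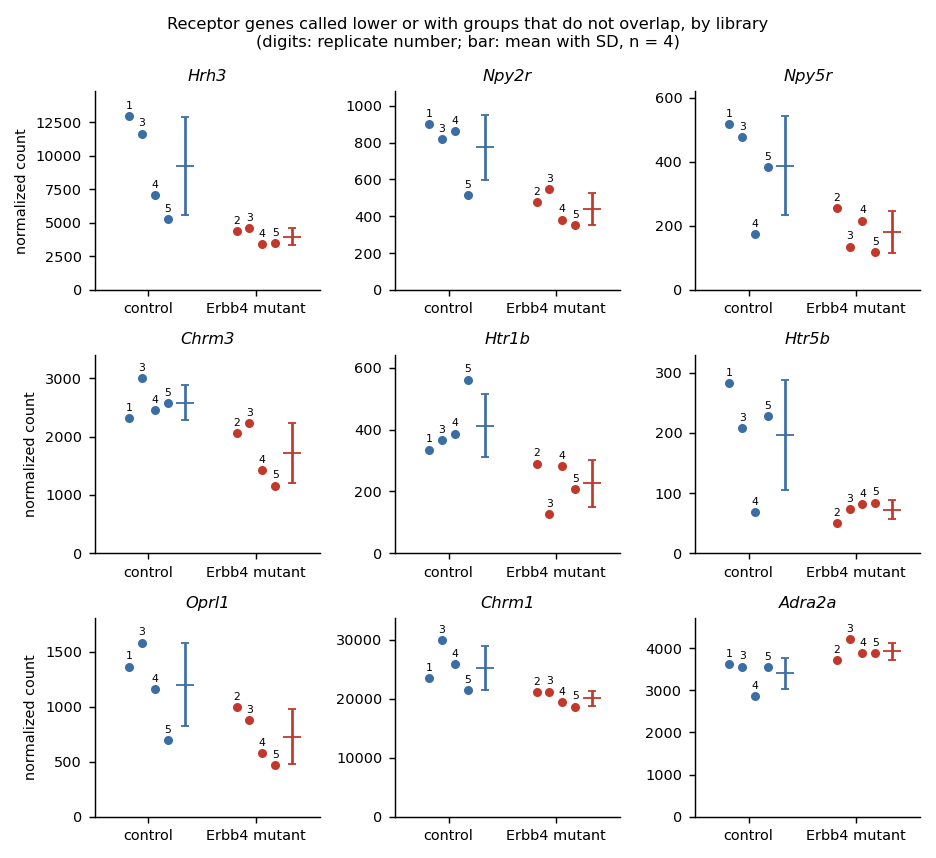
Normalized counts by library (points, with replicate numbers) for the 7 receptor genes called lower and for Chrm1 and Adra2a, with mean and SD of the 4 libraries of each genotype. Mutants lie below every control for Hrh3, Chrm3, Htr1b and Chrm1 and above every control for Adra2a, while single controls fall among the mutants for Npy2r, Npy5r, Htr5b and Oprl1.

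None of the 5 somatostatin receptors and none of the 4 dopamine receptors tested was called. Sstr1, a Gi/o-coupled receptor, had 4673, 9859, 6295 and 5526 normalized counts in the controls and 6428, 6964, 2861 and 3327 in the mutants. Mutant replicates 2 and 3 lay inside the control range and replicates 4 and 5 below it, and the log2 fold change was -0.48 (95% interval -1.21 to 0.26). Sstr2 and Sstr4 had log2 fold changes of -0.29 (95% interval -0.87 to 0.29) and -0.16 (-0.67 to 0.35). Without control replicate 1 they were -0.03 and -0.35. Without control replicate 3 Sstr4 had -0.06 and Sstr1 -0.26, and without mutant replicate 4 Sstr1 had -0.26, Sstr2 -0.19 and Sstr4 -0.09. Sstr4 had -0.30 without mutant replicate 3 and -0.10 without mutant replicate 5. Sstr5 was listed at 142, 41, 35 and 0 in the controls and at 0 in every mutant but replicate 4, which had 12, so its fitted fold change depends on the pseudocount. Drd1 had 2315, 3837, 2280 and 1962 normalized counts in the controls and 2415, 2328, 1069 and 1036 in the mutants. As for Sstr1, mutant replicates 2 and 3 lay among the controls and replicates 4 and 5 below all of them, and the log2 fold change was -0.67 (95% interval -1.41 to 0.08).

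Grouped by the G protein they engage, 21 of 25 tested Gi/o-coupled receptors had log2 fold changes below 0 with a median of -0.53, and 5 were called lower (Hrh3, Npy2r, Npy5r, Htr1b and Oprl1). Among the 10 Gq-coupled receptors 9 were below 0, the median was -0.34, and Chrm3 was called. Among the 9 Gs-coupled receptors 7 were below 0, the median was -0.20 and 0 were called, with 0 of them at an unadjusted p under 0.05 with limma. Of all genes tested, 3.17% were called lower, so 0 calls among 9 genes say little. Htr5b, which was called lower, was given no class, and the channel gene Htr3a stands outside them. Differences between these classes were not tested. By gene structure, the 10 receptor genes with a single-exon longest transcript had a median of -0.18 and no call, and the 36 others a median of -0.48 and all 7 calls. This split was not tested either, and no call among 10 genes says as little.

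The division of the libraries by number was visible in the receptors. Control replicate 3 was the highest control for 27 of the 46 members, and mutant replicates 2 and 3 the highest mutants for 21 and 16. Within the libraries numbered 1 to 3 (2 controls, 2 mutants), 35 of 46 members were lower in the mutants, with a median log2 difference of -0.38. Within those numbered 4 and 5 (2 and 2), 39 were lower, with a median of -0.60, and 31 members were lower in both. Hrh3 differed by -1.45 and -0.83, Npy2r by -0.75 and -0.86, Chrm3 by -0.29 and -0.96, Htr1b by -0.87 and -0.95 and Oprl1 by -0.65 and -0.79, in that order of the library sets. Npy5r differed by -1.42 and -0.69 and Htr5b by -1.99 and -0.58. Both mutants were below both controls in each of the sets for 9 of the 46 members, where this held for 8.28% of all genes tested: Hrh3, Npy2r, Chrm3, Htr1b and Oprl1 among those called, and Chrm1, Chrm2, Chrm4 and Drd4 among those not called. For Hrh3, Chrm1, Chrm3 and Htr1b this follows from the lack of overlap over all 8 libraries. Sstr1 and Drd1 differed by -0.02 and -0.33 in the libraries numbered 1 to 3 and by -0.94 and -1.01 in those numbered 4 and 5. A limma fit with a term for this division, which was added after the data were seen, called 11 receptor genes lower, where 5.84% of all genes were. These were the 7 named above with Chrm2, Drd1, Drd4 and Htr1a. In that fit only Hrh3 had an adjusted p under 0.05, at 0.039 with limma, beside 1.75% of all genes.

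Interneuron markers moved with the receptors, and their part in the result was not tested. Of all genes tested, 3.17% were called lower and 3.98% higher. All 10 markers of MGE-derived interneurons had log2 fold changes below 0 (median -0.81), 2 of them, Gad1 and Gad2, called lower, and their summed normalized count was 36220 to 124997 in controls and 19498 to 61347 in mutants. For PV+ interneurons all 10 markers were below 0 (median -1.06, 5 called lower; sums of 54521 to 171389 and 29481 to 73146), and for SST+ interneurons 9 of 10 (median -1.04, 1 called; 65010 to 515201 and 18042 to 211262). Like many receptors, these sums were highest in control replicate 3 and lowest in mutant replicate 5. Of 9 tested markers of interneurons from the caudal ganglionic eminence, 7 were below 0 (median -0.60), with sums of 31149 to 67429 and 22797 to 43044. Markers of excitatory neurons had a median of -0.15, with 1 of 10 called lower and 1 called higher, and sums of 115385 to 153379 and 111241 to 137598. Those of astrocytes had a median of -0.11, with sums of 139182 to 243593 and 146836 to 165683, those of microglia -0.44 (26620 to 53208 and 27696 to 33070) and those of oligodendrocytes -0.62, with 3 of 10 called lower (227901 to 666183 and 198772 to 284492). Endothelial and mural markers went the other way, with a median of 0.64 and 5 of 10 called higher (151988 to 260943 in controls and 247612 to 264660 in mutants). Defining markers of every one of these cell types were read above 0, and the summed receptor counts were 76668 to 115634 in controls and 60150 to 77448 in mutants.

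**Figure D4:**
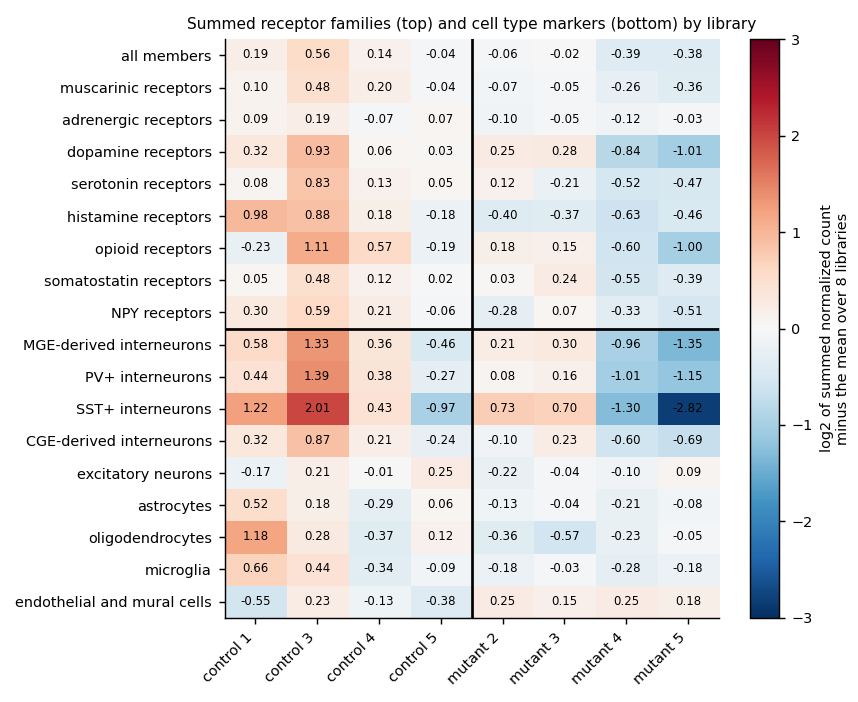
Log2 of the summed normalized count of the receptor families (top rows) and of cell type markers (bottom rows) in each library, minus the mean over the 8 libraries, with controls left of the line. Control replicate 3 is high and mutant replicates 4 and 5 are low for most receptor families and for the interneuron markers, and the histamine receptors are also high in control replicate 1.

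The ligands were read in the same libraries. Of 9 peptide ligand precursors 7 were tested, all 7 with log2 fold changes below 0 (median -1.37), and 0 were called. Without a term for library numbers, 0 had an unadjusted p under 0.05 with limma and 0 an adjusted p under 0.05 with edgeR or DESeq2. Sst, the somatostatin precursor, had 186458, 367992, 96107 and 31270 normalized counts in the controls and 143143, 133970, 27867 and 5964 in the mutants, so libraries of 1 genotype lay further apart than the genotype means. Within the libraries numbered 1 to 3 and within those numbered 4 and 5, both Sst mutants were below both controls, as for 8.28% of all genes. With the replicate block, the unadjusted limma p was 0.00014 for Sst, 6.9e-05 for Npy, 0.00018 for Pnoc and 0.00019 for Pdyn. It was 0.00048 for Cort, 0.029 for Penk and 0.52 for Pomc. In that fit 0 of all genes had an adjusted p under 0.05. Of the 12 genes of amine and acetylcholine synthesis and transport 11 were tested, with a median of -0.99, which is the value of Slc5a7. Chat, Dbh, Slc6a3, Slc6a4 and Hdc had libraries at 0, and their fold changes had standard errors of 1.46 to 2.06. Only Slc5a7, the choline transporter of cholinergic terminals, was called lower, with 276 to 733 normalized counts in the controls and 142 to 452 in the mutants (log2 fold change -0.99, SE 0.44, unadjusted p = 0.048 with limma). The groups overlapped for this gene.

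The intracellular partners of the receptors had medians on both sides of 0. The 13 G protein alpha subunits had a median of 0.12 and no call. The one with most reads, Gnas, which encodes the Gs alpha subunit, had a log2 fold change of -0.26 (unadjusted p of 0.28). The 13 beta and gamma subunits tested had a median of -0.30 with Gnb1 at -0.08, the 17 regulators of G protein signalling (RGS) one of -0.02 with Rgs12 at 0.60, and the 7 receptor kinases and arrestins tested one of 0.27 with Grk2 at 0.24. None of these genes was called. Among 15 adenylyl cyclases and subunits of protein kinase A, the median was 0.11 and 1 was called higher, Prkar2a, a regulatory subunit of the kinase. Its 489, 686, 870 and 1315 normalized counts in the controls rose to 1393, 1256, 1717 and 1475 in the mutants (log2 fold change 0.88, SE 0.29, unadjusted p = 0.012 and adjusted p = 0.58 with limma), and control replicate 5 overlapped the mutants. The 7 phospholipase C beta and IP3 receptor genes had a median of 0.28 with Itpr1 at 0.19, and the 4 GIRK channel subunits one of -0.17 with Kcnj3 at -0.46, with no call in either.

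**Figure D5:**
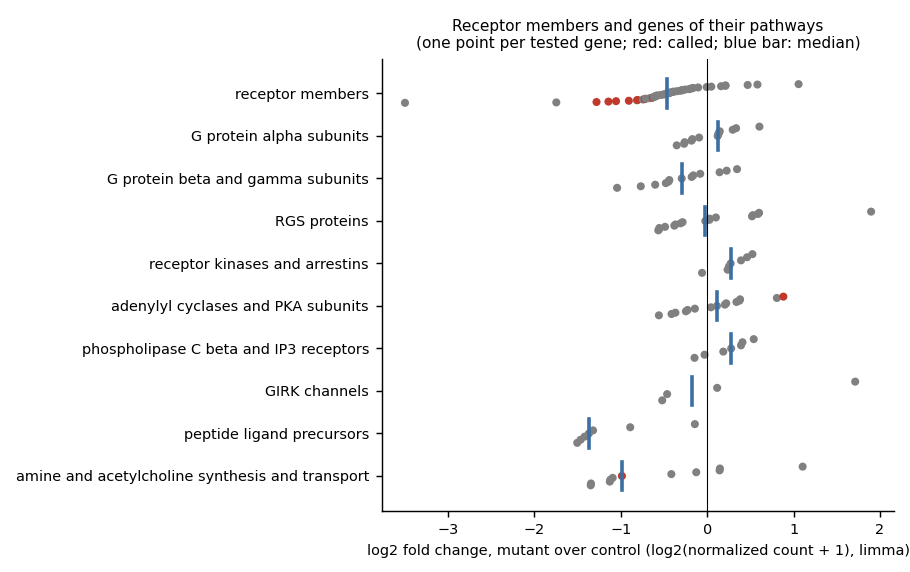
Log2 fold change, mutant over control, of each tested receptor gene (top row) and of the genes of their signalling and ligand pathways (other rows); each point is a gene, red points are called and blue bars are medians. The receptor median lies at -0.46 and those of the peptide ligand precursors and of the amine and acetylcholine genes further left, while the alpha subunits, receptor kinases, cyclases and phospholipase genes have medians above 0. Some of the amine and acetylcholine genes had libraries at 0.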

How the data were processed

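Ribosome-associated RNA from cortical synaptosomes at postnatal day 15 was sequenced from 4 control and 4 Erbb4 conditional mutant libraries, which the study describes as biological replicates. Groups and replicate numbers came from the sample labels, and all 8 value columns matched a sample by title. Per the study's methods, libraries were made with the SMARTer Ultra Low kit from a small RNA input, a kit that does not mark strand. The authors aligned reads with STAR 2.4.0 to mm10. They counted reads over the constitutive regions of Mouse Fast DB genes and divided the counts by DESeq2 size factors. They deposited the result, a signal in normalized counts, without a filter. Every value (100%, within 0.01 read) was a whole multiple of the value of 1 read in its library, and 16918 genes were at 0 throughout.

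Genes averaging 10 or more in either genotype were fitted with limma 3.58.1 (trend, no covariate) in R 4.3.3 on log2(normalized count + 1), with Benjamini-Hochberg adjustment over the 31171 genes tested. P-values measure the spread between these libraries. Quasi-likelihood fits of the recovered reads in edgeR 4.0.16, DESeq2 1.42.0, other pseudocounts, filters and scalings, library weights, a replicate block and leaving out each library were alternatives. The fit was tested on simulated counts of 29884 genes: of 200 that were given a 3-fold change, 88% were called, and of the rest 4.67%. The changed genes were drawn from those with a mean of at least 100, and effects shared by a library were not simulated. Every called receptor gene changed by less than 3-fold, so the 88% does not hold for them. Whether depth or the spread between libraries limited precision more was not tested.

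The members, gene lists and coupling classes were chosen with earlier results of these data known. Genes named are members called, those with groups that did not overlap, the 10 with the highest mean normalized count and the first of each family, and from each pathway list the genes called or else the one with the highest mean. Adra2c, Adrb3, Chrm2, Chrm4, Drd4, Drd5, Htr3a, Htr4, Htr6, Htr2b, Htr2c, Hrh1, Hrh2, Npy1r, Oprk1, Oprm1, the members read at or near 0 and the markers given with values were named outside this rule, after their values were seen. So were the peptide precursors other than Sst and the amine and acetylcholine genes named for libraries at 0. The tested members include 1 whose values are not reported here. Lengths and exons came from GENCODE M21 on the same build, by symbol, for all 51 members, and start site sequences from RefSeq (GRCm38.p6) for 38 of them. No label assigns libraries to the sequencing batches the study mentions. Replicate numbers were not taken as pairs, since no label pairs the libraries. The correlations of deviations between same-numbered libraries were 0.1, 0.0981 and 0.0823, which do not decide whether the samples were paired.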

Additional observations from a re-analysis of the deposited data

Results flagged for a closer look

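Adra2a in the controls was the only one of the 32 groups of 4 libraries, over the 16 named members, in which a single library lay far from the other 3. Control replicate 4 had 2864 normalized counts, against 3543 to 3628 in the other controls, so the gap was most of the range of the group. Chance alone gives about 1 such group in 20. Without this library, the log2 fold change of Adra2a was 0.13, against 0.21 with it.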

How the results depend on the processing

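The median log2 fold change of the receptor genes stayed below 0 under every alternative, from -0.66 with library weights to -0.44 with TMM among those that kept all 8 libraries and no block, and from -0.59 to -0.30 when 1 library was left out. It moved beyond the spread between libraries only with the replicate block, to -0.76. The replicate block uses the 3 numbers that both genotypes share, and it called 18 receptor genes lower, where 5.51% of all genes were. No label says whether these numbers pair the samples. Receptor genes called lower were 5 to 8 under the other pseudocounts, filters and scalings and with edgeR or DESeq2, where 2.5% to 5.05% of all genes were. They were 12 with library weights (5.24% of all genes) and 11 with the term for library numbers added after seeing the data (5.84%), against 7 (3.17%). They were 3 to 8 when 1 library was left out (1.64% to 6.28% of all genes), with 3 without control replicate 3 (1.74%) and 4 without mutant replicate 5 (1.64%). Library weights called 1 receptor gene higher, where 6.41% of all genes were, and the other alternatives 0. Receptor genes whose groups do not overlap were 3 with TMM against 5, and 5 to 11 with a library left out (9 without control replicate 1 or 4, 11 without control replicate 5). Groups with a library left out are smaller and separate more easily, and the share over all genes was not counted for these settings. Pathway genes called lower, 1 in the report, were 0 with a pseudocount of 0.1, TMM or no trend, 4 with edgeR, 5 with DESeq2, 6 with library weights, 11 with the term for library numbers, 12 with the replicate block and 0 to 10 with 1 library left out. Those called higher, also 1, were 2 with edgeR, DESeq2 and the term, 3 with weights, 5 with the replicate block and 1 to 2 with 1 library left out. Of all genes, 3.44% were called higher with edgeR, 4.05% with DESeq2, 5.57% with the term, 6.41% with weights and 4.64% with the replicate block. The main fit called 3.98% of all genes higher, and leaving out 1 library 1.97% to 5.69%. These counts are over the tested genes of the pathway lists, and shares called lower are given above. The cause of the differences between fits was not tested. None of the 16 members followed through every alternative changed sign. Of the other tested members, those near 0 or sparsely read did: Adra2b, Adrb3 and Htr1d fell below 0 with edgeR, DESeq2, a pseudocount of 10, library weights, the replicate block and without control replicate 1. Npy1r, Hrh1, Hrh2, Htr3a, Drd5, Htr4 and Htr6 each changed sign under at least 1 alternative, and the members below 0 were 37 to 42 of 46 under all those that kept the filter. Hrh3 and Npy2r kept their calls throughout. Chrm3 fell short of 1.5-fold with edgeR and DESeq2 (-0.56 in both) and lost its call with no trend, Oprl1 lost its call with edgeR, TMM, no trend and a pseudocount of 0.1, and Htr5b and Npy5r lost theirs with library weights and with the replicate block. Sstr5, Chrm5 and Adra2b, which had libraries at 0, spread widely between libraries of 1 genotype.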
